A study of Saccharomyces cerevisiae with 6 samples.

Results

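Chaperones are the proteins that help other proteins to fold, keep them from aggregating and pull aggregates apart, and the heat shock genes are those among them, and their partners, that cells make in larger amounts under stress. The expression of 37 chaperone and heat shock genes of Saccharomyces cerevisiae was examined among the 5791 ORFs analysed. The members were chosen by name, with the compartment in which their products work: 25 act in the cytosol and nucleus, 7 in mitochondria and 4 in the endoplasmic reticulum (ER), and HSF1 encodes the heat shock transcription factor. All 37 had enough reads to be tested, as did 5645 ORFs in total.

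The study asked how nitrogen catabolite repression (NCR) and the GATA factor Dal80 shape transcription. Wild-type cells were grown with glutamine, which yeast prefers and which represses the use of poorer sources, or with proline, a poor source under which this repression is relieved, and dal80Δ cells were grown with proline. All cultures grew exponentially in minimal medium that contained glucose. From 2 cultures of each of these 3 groups, total RNA was depleted of rRNA and sequenced. The wild type is listed as MATα ura3 his3 trp1 and the mutant as MATa ura3 his3 trp1 dal80::kanMX, both of the FY background, so that the effect of the deletion and that of the mating type cannot be told apart. Both comparisons use the same wild-type proline libraries: a value that is high there by chance raises one fold change and lowers the other. The 2 cultures of a group carry the label of biological replicates, and no more is known of how independent they were.

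In yeast, Hsp70 proteins bind unfolded stretches of other proteins and are served by J proteins, which stimulate their ATPase, and by nucleotide exchange factors, which reset them. The cytosol, the mitochondrial matrix and the ER lumen each have their own Hsp70 with its own partners. Hsf1 drives many chaperone genes through heat shock elements (HSE), Msn2 and Msn4 act on general stress genes through the stress response element (STRE), and Hac1 drives genes of the ER lumen through the unfolded protein response element (UPRE).

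Between 12304015 and 19968312 reads per library fell on ORFs. The values below are scaled reads, that is, reads on the ORF multiplied by the authors' factor for the library. DAL80 had 16 and 17.7 scaled reads in glutamine, 3537 and 2729 in wild-type cells in proline and 6.15 and 2.75 in dal80Δ cells, as the labels require. The 4 α-specific markers (MFα1, MFα2, STE3 and SAG1) summed to 56143 to 77866 scaled reads in the 4 wild-type libraries and to 677 to 720 in dal80Δ. The 6 a-specific markers (MFA1, MFA2, STE2, STE6, BAR1 and ASG7) summed to 188 to 236 in glutamine, 2006 to 2219 in wild-type cells in proline and 6041 to 6858 in dal80Δ. Reads of a-specific genes thus moved with the nitrogen source in the α strain as well, and their part in the results below was not tested.

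Chaperone promoters are known for their HSEs, so the sequence before the members was read first. The window was the 300 bases before the transcript start given in the deposited table, on genome build R64. An HSE is built of GAA and TTC units in turn, with any 2 bases (NN) between them. An HSE of 2 units (TTCNNGAA or GAANNTTC, on either strand, overlapping matches counted) was found for 24 of the 37 members and in 23.5% of all 5771 windows. An HSE of 3 units, which is an HSE of 2 units followed by NN and a further GAA or TTC in turn, was found for 14 members and in 0.953% of all windows. The STRE (AGGGG, either strand) was found for 11 members against 22.3% of windows. The sequence GATAAG (either strand) was found for 3 members against 14.6%, and the UPRE core (CAGCGTG, either strand) for 2 members, KAR2 and LHS1, against 1.39%. GATAAG is narrower than the GATA sites of the study, which also counted GATAA and GATTAG, in a window before the start codon. The UPRE core was added after the values of the ER genes had been seen. A match describes these letters and is not evidence of binding.

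The stretches below are those before some of the genes on which the results turn, written 5′ to 3′ on the strand of the gene. Matches are in capitals, with a few bases on each side. HSP31, also called lower in dal80Δ, has no stretch here: its window held no HSE, STRE, GATAAG or UPRE core. CUR1 has 1 HSE of 2 units, a match found in 23.5% of all windows. The first 4 genes were lower in dal80Δ than in wild-type cells and carry an HSE, the next 2 are ER genes with a UPRE core, and the last is an HSE gene of mitochondria that was lower in proline and not called in dal80Δ. In HSP78 the long match is the HSE and the short ones are the 3 STREs, and in KAR2 the HSE comes before the UPRE core.
HSP78 (chr4:974363-974496, minus strand): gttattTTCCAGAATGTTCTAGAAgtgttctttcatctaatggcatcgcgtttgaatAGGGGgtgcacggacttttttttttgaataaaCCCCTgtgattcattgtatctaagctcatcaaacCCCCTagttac
HSP42 (chr4:806372-806401, plus strand): taaaagTTCTGGAAGGTTCGCGAAttgaga
SIS1 (chr14:619881-619915, minus strand): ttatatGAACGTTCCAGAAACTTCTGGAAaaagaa
CUR1 (chr16:843068-843087, plus strand): aaaaggGAACTTTCctactc
KAR2 (chr10:381116-381179, plus strand): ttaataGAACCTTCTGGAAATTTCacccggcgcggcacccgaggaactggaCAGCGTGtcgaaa
LHS1 (chr11:296325-296343, plus strand): atcgaaCACGCTGttataa
HSP60 (chr12:665194-665218, minus strand): ctcgtgGAATTTTCCAGAAaaccaa

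The first comparison, wild-type cells in proline against wild-type cells in glutamine, asked which chaperone genes follow the nitrogen source. All 4 ER members were lower in proline, as were SSB1, SSB2, SSA2 and HSC82 in the cytosol and SSC1 and HSP60 in mitochondria, whereas the small heat shock protein gene HSP42 and the mitochondrial disaggregase gene HSP78 were higher, with APJ1 and HSF1. With a limma fit on log2(scaled reads + 1), an adjusted p of at most 0.01 and a change of at least 2-fold, 4 of the 37 members were higher and 10 were lower, and 23 were not called. Of all ORFs tested, 13% were called higher and 15.6% lower. The median log2 fold change of the members was 0.07, beside 0.04 over all ORFs tested.

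**Figure D1:**
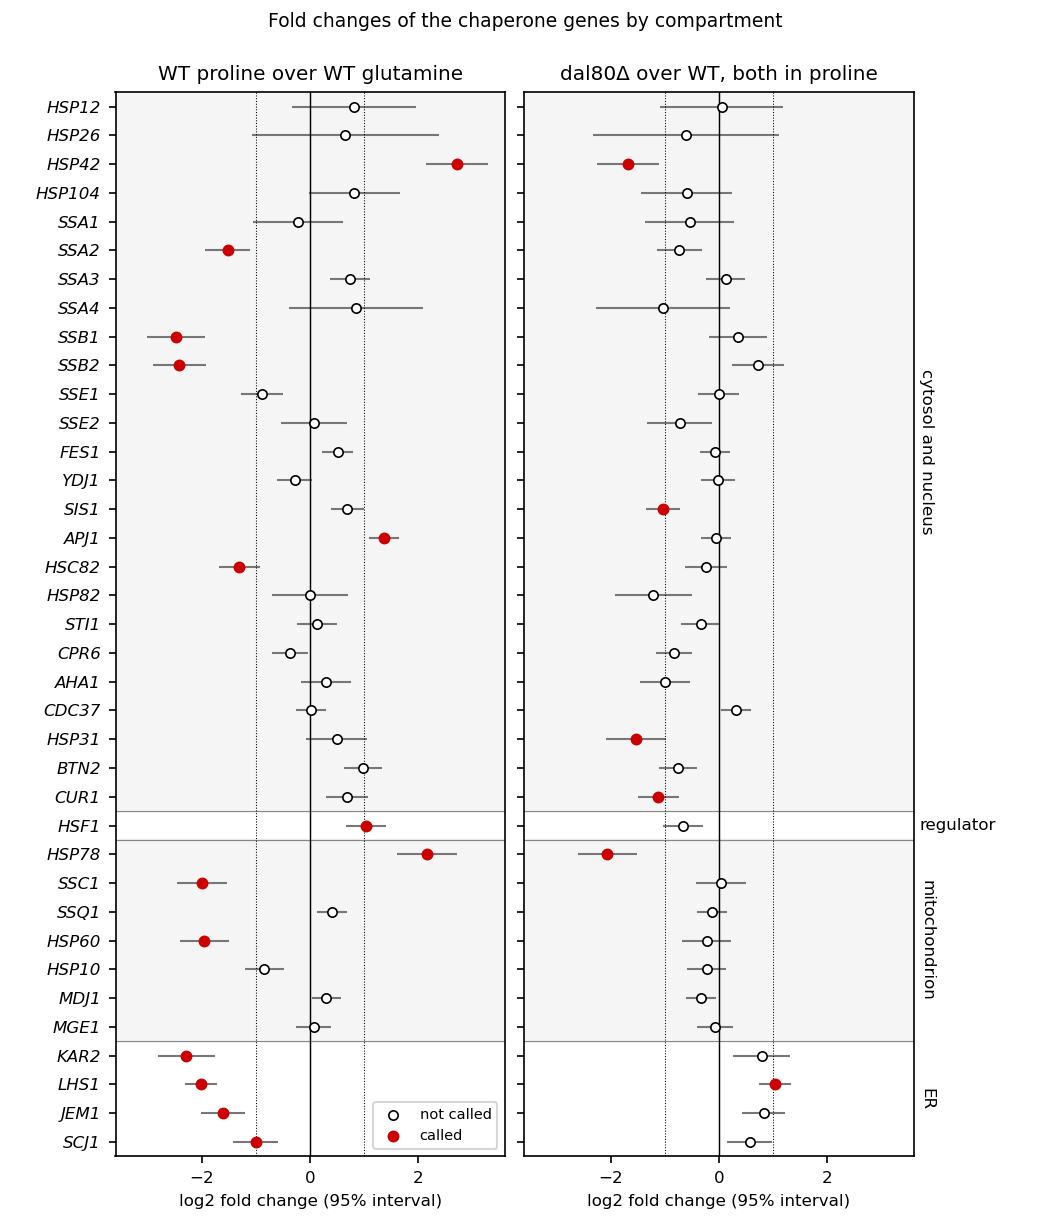
Log2 fold changes of the 37 members with their 95% intervals (limma), in proline over glutamine for wild-type cells (left) and in dal80Δ over wild-type cells in proline (right); filled points are called (adjusted p at most 0.01 and at least 2-fold), and dotted lines mark 2-fold. All 4 ER genes lie left of 0 in the left panel and right of 0 in the right panel, and HSP42 and HSP78 lie far to the right in the left panel and far to the left in the right panel.

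In the ER, KAR2, which encodes the lumenal Hsp70 (BiP), had 15208 and 24582 scaled reads in glutamine, 4064 and 3859 in proline and 6837 and 6889 in dal80Δ. The 3 groups did not overlap, with glutamine highest and wild-type proline lowest. The fall from glutamine to proline was 4.88-fold (log2 fold change -2.29 ± 0.23 SE, adjusted p = 0.000127). LHS1 encodes an Hsp110-like exchange factor of Kar2 and had 1762 and 1896 scaled reads in glutamine, 423 and 477 in proline and 971 and 878 in dal80Δ. Its order of groups was that of KAR2, and it fell 4.06-fold in proline (log2 fold change -2.02 ± 0.13, adjusted p = 2.34e-05). JEM1, a J protein of the ER, had 400.0 and 491 scaled reads in glutamine, 158 and 132 in proline and 286 and 230 in dal80Δ, again without overlap, and its log2 fold change in proline was -1.61 ± 0.17 (adjusted p = 0.000185). SCJ1, the other J protein among the ER members, had 540.0 and 789 scaled reads in glutamine, 319 and 328 in proline and 496 and 469 in dal80Δ. Its log2 fold change of -1.01 ± 0.18 (adjusted p = 0.00189) lies at the fold threshold, and its call was lost without WT_Glu replicate 2, without WT_Pro replicate 1 or without WT_Pro replicate 2, and with TMM factors (-0.89), edgeR (-0.92), a pseudocount of 8 (-0.99) or totals of reads on ORFs (-0.09). In the fit of all libraries with the deposited factors and a pseudocount of 1, all 4 ER members were called lower in proline, with a median log2 fold change of -1.82. Together they took 0.108% and 0.165% of the reads on ORFs in glutamine, 0.0577% and 0.0532% in wild-type proline and 0.0851% and 0.0770% in dal80Δ. These shares do not use the deposited factors, but they amount to scaling by totals of reads on ORFs.

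Other folding genes of the ER moved in the same direction. In a list of 12 further genes, 6 were lower in proline and none was higher, with a median log2 fold change of -0.94. All 12 were below 0, beside 48.3% of all ORFs tested. They included the disulfide isomerase gene PDI1 (-2.37), the prolyl isomerase gene FPR2 (-2.19), the Pdi1 relative EUG1 (-1.88) and SEC63 (-1.42), which encodes the J protein of the translocation channel. HAC1, whose product activates the unfolded protein response, had a log2 fold change of -0.18 (adjusted p = 0.375) and IRE1, its upstream sensor, of -0.41 (adjusted p = 0.0206), and neither was called. These values are amounts of RNA, and the activity of Hac1 and Ire1 was not measured.

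Among the cytosolic members, the ribosome-associated Hsp70 genes SSB1 and SSB2, whose products bind nascent chains, had the largest falls. SSB1 had 80906 and 68050 scaled reads in glutamine, 11286 and 15552 in proline and 15512 and 18343 in dal80Δ. The glutamine libraries stood far above the other 4, and the log2 fold change was -2.49 ± 0.23 (5.60-fold, adjusted p = 9.99e-05). SSB2 had 66628 and 61622 scaled reads in glutamine, 10670 and 13477 in proline and 18103 and 21510 in dal80Δ, with a log2 fold change of -2.42 ± 0.21 (adjusted p = 7.33e-05). The ORFs of this pair are 97.6% identical and 56.8% of their 50-base stretches are unique in the genome, so that the share of reads counted for each may be low. Sequencing was paired-end, and this measure takes each stretch alone, so it may understate how many read pairs can be placed. Their partners at the ribosome, SSZ1 and ZUO1, were called lower as well (log2 fold changes -1.67 and -1.44).

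SSA2, a constitutive cytosolic Hsp70 gene, had 44380 and 50175 scaled reads in glutamine, 16274 and 16568 in proline and 9234 and 10538 in dal80Δ, and fell by 1.52 on the log2 scale in proline (adjusted p = 0.000267). Its close paralog SSA1 had 12724 and 28527 in glutamine, 18971 and 13988 in proline and 11256 and 11103 in dal80Δ. The glutamine libraries of SSA1 lay on both sides of the proline libraries, and the change was not called (log2 fold change -0.23 ± 0.36). The ORFs of SSA1 and SSA2 are 96.8% identical, and 42.1% and 41.8% of their 50-base stretches are unique. SSA3 and SSA4 are stress-inducible Hsp70 genes. SSA3 had 261 and 331 scaled reads in glutamine, 533 and 450 in proline and 555 and 512 in dal80Δ, a rise of 0.73 ± 0.16 on the log2 scale that passed the adjusted p (0.00463) and not the fold threshold. SSA4 had 258 and 990 in glutamine, 1102 and 747 in proline and 474 and 414 in dal80Δ, so that the cultures in glutamine differed from each other more than the groups did.

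The Hsp90 genes did not move together. HSC82, the constitutive form, had 32689 and 33746 scaled reads in glutamine, 14043 and 12812 in proline and 11188 and 11510 in dal80Δ, and was 2.48-fold lower in proline (log2 fold change -1.31 ± 0.16, adjusted p = 0.000364). HSP82, the inducible form, had 2374 and 4541 in glutamine, 3978 and 2701 in proline and 1484 and 1343 in dal80Δ, and its log2 fold change of 0.00 ± 0.31 in proline was not called. Of the Hsp90 co-chaperones, STI1, which bridges Hsp70 and Hsp90, the ATPase activator AHA1, the cyclophilin CPR6 and the kinase-specific CDC37, none was called in proline by limma, edgeR or DESeq2, with log2 fold changes of 0.13, 0.30, -0.37 and 0.02, the third of which had an unadjusted p under 0.05 (1 of 4). SSE1 and SSE2 encode Hsp110 exchange factors. SSE1 had 26661 and 26321 scaled reads in glutamine, 13770 and 14834 in proline and 14321 and 14238 in dal80Δ, and its log2 fold change of -0.89 ± 0.16 (adjusted p = 0.00220) missed the fold threshold. SSE2 had 1075 and 1924 in glutamine, 1708 and 1341 in proline and 894 and 933 in dal80Δ, and its glutamine and proline values overlapped.

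Of the cytosolic chaperonin, the ring complex that folds actin and tubulin, 7 of the 8 subunit genes were called lower in proline (5 with edgeR), with a median log2 fold change of -1.20. The falls of CCT6 (-1.47), CCT3 (-1.36), TCP1 (-1.30) and CCT5 (-1.24) were the largest, and CCT8 (-0.94) was not called. Prefoldin, which hands clients to the chaperonin, had none of its 6 genes called by limma, edgeR or DESeq2, with 2 at an unadjusted p under 0.05 and a median of 0.44. Of 9 further J proteins and partners, JJJ1, a J protein of ribosome biogenesis, was higher (1.25) and SSZ1 and ZUO1 were lower, and edgeR called 6 of the 9. Of 8 further Hsp90 co-chaperones, the phosphatase gene PPT1 was lower (-1.22).

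HSP42, a small heat shock protein that sorts misfolded proteins into aggregates, had the largest rise among the members. It had 178 and 221 scaled reads in glutamine, 1701 and 1003 in proline and 438 and 381 in dal80Δ. The groups did not overlap, wild-type proline was highest, and the rise in proline was 6.55-fold (log2 fold change 2.71 ± 0.24, adjusted p = 9.01e-05). APJ1, a J protein, had 160.0 and 172 scaled reads in glutamine, 428 and 434 in proline and 426 and 401 in dal80Δ, a 2.59-fold rise with the nitrogen source (log2 fold change 1.37 ± 0.12, adjusted p = 7.79e-05). HSF1 had 350.0 and 315 scaled reads in glutamine, 723 and 643 in proline and 492 and 375 in dal80Δ. Its rise in proline was 2.05-fold (log2 fold change 1.04 ± 0.16, adjusted p = 0.000954), near the fold threshold, and the call was lost without WT_Glu replicate 2 and without WT_Pro replicate 1. The sorting factor genes BTN2 (0.98, adjusted p = 0.000961) and CUR1 (0.68, adjusted p = 0.00762), the J protein gene SIS1 (0.69, adjusted p = 0.00282) and the exchange factor gene FES1 (0.51, adjusted p = 0.00722) passed the adjusted p and missed the fold threshold. The J protein gene YDJ1 had a log2 fold change of -0.29 and HSP31, which encodes a glyoxalase and chaperone of the DJ-1 family, one of 0.49, and neither was called.

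The stress-inducible genes HSP12, HSP26, HSP104, SSA1 and SSA4 were at least 2-fold higher in WT_Glu replicate 2 than in WT_Glu replicate 1, as were 2.8% of all ORFs tested. HSP12, a small membrane-stabilising protein, had the highest density per nucleotide of the cytosolic members averaged over the 3 groups (SSB1, SSB2 and SSA2 exceeded it in glutamine), with 2857 and 9455 scaled reads in glutamine, 10263 and 8087 in proline and 7925 and 11206 in dal80Δ. HSP26, a small heat shock protein, had 505 and 2884 in glutamine, 2999 and 1199 in proline and 1310 and 1179 in dal80Δ. HSP104, the disaggregase, had 2605 and 5947 in glutamine, 8390 and 5758 in proline and 4501 and 4717 in dal80Δ. Their log2 fold changes in proline, 0.81 ± 0.49, 0.65 ± 0.74 and 0.82 ± 0.36, were not called. They rest on which glutamine library is used: without WT_Glu replicate 2, 8 members were called higher in proline, HSP12, HSP26, HSP104, SSA4 and BTN2 among them, and without WT_Glu replicate 1 the values of HSP12, HSP26 and SSA4 were -0.05, -0.60 and -0.13.

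**Figure D2:**
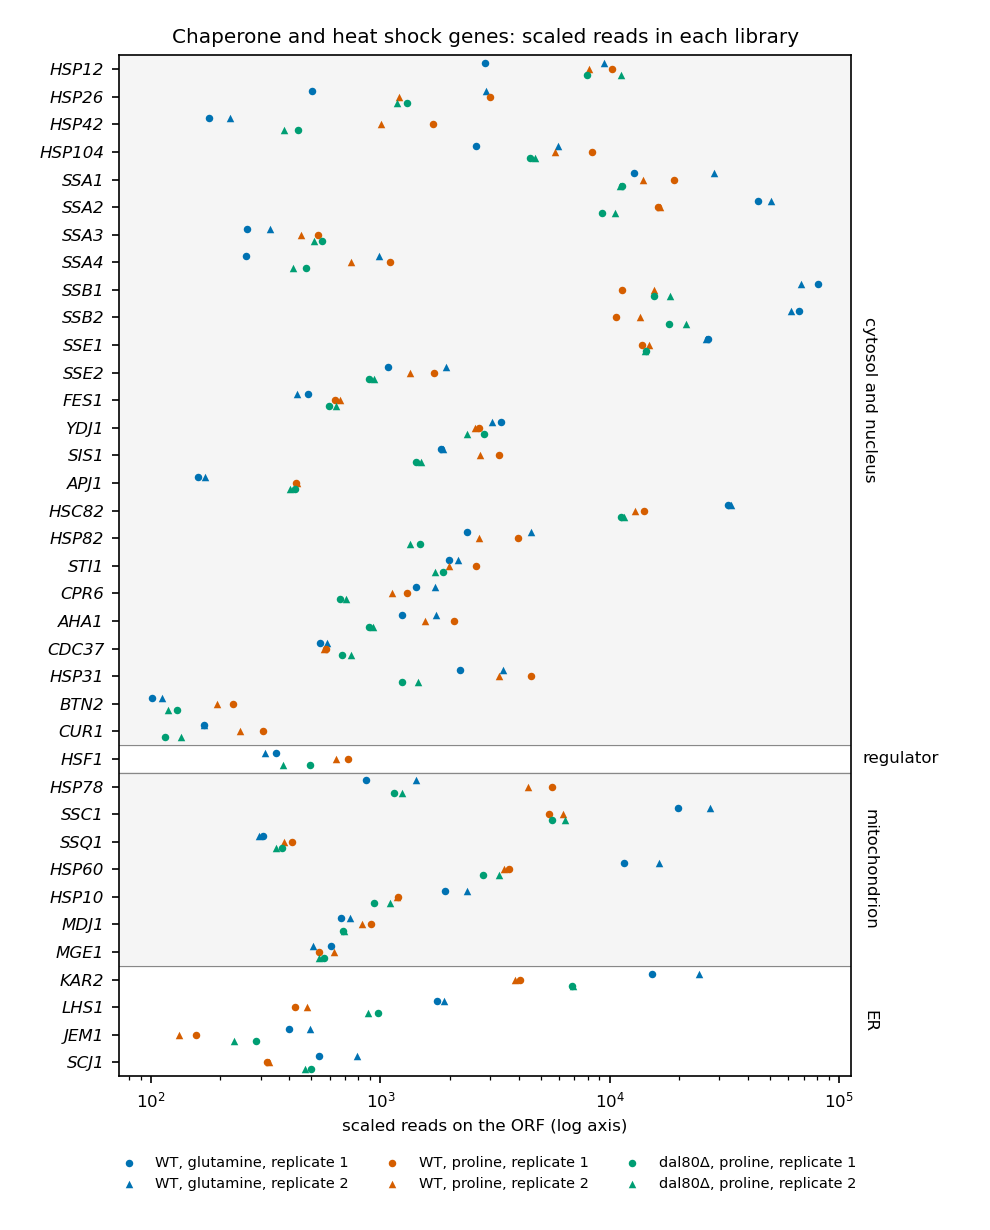
Scaled reads on the ORF of each member (log axis) in the 6 libraries, with 1 symbol per library and colours for the 3 groups. The 2 glutamine libraries lie close together for HSC82 and LHS1 and far apart for HSP12, HSP26 and SSA4, and the ER genes are ordered glutamine, dal80Δ, wild-type proline from right to left.

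Of the 7 mitochondrial members, 2 were lower in proline and 1 was higher. SSC1, the matrix Hsp70 that pulls in and folds imported proteins, had the highest density of them averaged over the 3 groups (HSP10 exceeded it in both proline groups), with 19894 and 27320 scaled reads in glutamine, 5454 and 6266 in proline and 5608 and 6402 in dal80Δ. It was 3.99-fold lower in proline (log2 fold change -2.00 ± 0.20, adjusted p = 0.000127). HSP60, the matrix chaperonin, had 11528 and 16368 in glutamine, 3632 and 3445 in proline and 2796 and 3271 in dal80Δ, with a log2 fold change of -1.96 ± 0.19 (adjusted p = 0.000124). Its partner ring HSP10 changed by -0.85 ± 0.15 (adjusted p = 0.00199), under the fold threshold. HSP78, the matrix disaggregase, went the other way. It had 867 and 1428 scaled reads in glutamine, 5611 and 4393 in proline and 1141 and 1236 in dal80Δ, so that wild-type proline stood apart from the other 4 libraries. The rise in proline was 4.46-fold (log2 fold change 2.16 ± 0.24, adjusted p = 0.000197). SSQ1, an Hsp70 of iron-sulfur cluster assembly, the J protein gene MDJ1 and the exchange factor gene MGE1 were not called, with log2 fold changes of 0.40, 0.30 and 0.07. Of 9 further genes of the import motor and its partners, TCM62, which encodes a relative of Hsp60, was higher (1.19) and the matrix cyclophilin gene CPR3 was lower (-2.10).

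The count of calls in this comparison depends on how libraries are scaled. The methods of the study name totals of reads on ORFs as the scaling, which the deposited factors do not follow. With totals of reads on ORFs in place of the deposited factors, the median of all ORFs tested moved from 0.04 to 0.96, and 17 members were then higher and 6 lower. The 4 members higher with the deposited factors were among the 17, and the 6 were SSB1, SSB2, KAR2, LHS1, SSC1 and HSP60. Because RNA was taken from bulk cultures, less RNA per cell and fewer cells that express a gene cannot be told apart.

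The second comparison, dal80Δ against wild-type cells in proline, asked which members depend on Dal80. HSP78, HSP42, HSP31, CUR1 and SIS1 were lower in dal80Δ and LHS1 was higher. These 5 lower and 1 higher of 37 members stand beside 4.43% of all ORFs tested called lower and 3.6% called higher. Of the members, 27 had a log2 fold change below 0, which is 73.0%, beside 45.4% of all ORFs tested. The median was -0.59 for the 25 members of the cytosol and nucleus, -0.23 for the 7 mitochondrial members and 0.81 for the 4 ER members, beside 0.05 over all ORFs tested. Totals of reads on ORFs moved the median of all ORFs to -0.21, with 9 members lower and none higher by the limma fit (4 higher at an unadjusted p under 0.05).

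HSP78 fell 4.18-fold in dal80Δ (log2 fold change -2.06 ± 0.24, adjusted p = 0.000842) to values that lie among those of wild-type cells in glutamine. HSP42 fell 3.20-fold (log2 fold change -1.68 ± 0.24, adjusted p = 0.00258), to values between the glutamine and the proline libraries of the wild type. HSP31 had 2211 and 3434 scaled reads in glutamine, 4536 and 3303 in proline and 1237 and 1453 in dal80Δ, and dal80Δ lay below all 4 wild-type libraries. Its fall was 2.89-fold (log2 fold change -1.53 ± 0.24, adjusted p = 0.00361). The call was lost with the replicate block (adjusted p = 0.0118) and with no filter on low values (adjusted p = 0.0113). It was also lost without WT_Pro replicate 2, unlike the calls of HSP78, HSP42, CUR1 and SIS1.

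CUR1, which sorts misfolded proteins to the nucleus with Sis1, had 170.0 and 170.1 scaled reads in glutamine, 308 and 243 in proline and 115 and 135 in dal80Δ. Again dal80Δ lay below all wild-type libraries, and the fall was 2.18-fold (log2 fold change -1.12 ± 0.16, adjusted p = 0.00257). SIS1 encodes the essential J protein of Hsp70 and had 1835 and 1869 scaled reads in glutamine, 3284 and 2722 in proline and 1425 and 1497 in dal80Δ. Its fall was 2.05-fold (log2 fold change -1.03 ± 0.13, adjusted p = 0.00149). Next to these, AHA1 (-0.99, adjusted p = 0.00986), CPR6 (-0.83, adjusted p = 0.00523) and BTN2 (-0.76, adjusted p = 0.00944) passed the adjusted p and missed the fold threshold, whereas HSP82 (-1.21, adjusted p = 0.0223) and SSA4 (-1.03, adjusted p = 0.175) missed the adjusted p. AHA1 was called lower with TMM factors, edgeR, DESeq2 and totals of reads on ORFs, and HSP82 with DESeq2, totals and the fit of 2 groups. SSA4 was called lower with the limma fit of 2 groups (adjusted p = 0.00142), which leaves out the glutamine libraries. HSF1 had a log2 fold change of -0.67 ± 0.16 (adjusted p = 0.0192), and its dal80Δ libraries lay between those of the wild type in proline and in glutamine.

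LHS1 was 2.05-fold higher in dal80Δ than in wild-type cells in proline (log2 fold change 1.04 ± 0.13, adjusted p = 0.00108). This value lies at the fold threshold, and the call was lost with TMM factors and with edgeR (0.99 in each) and with totals (0.78). KAR2 (0.79, adjusted p = 0.0349), JEM1 (0.83, adjusted p = 0.0119) and SCJ1 (0.57, adjusted p = 0.0470) had values above 0 and were not called. For all 4 genes both dal80Δ libraries lay above both wild-type proline libraries, as they did for 39% of all ORFs tested. None of the 12 further ER folding genes was called by limma, edgeR or DESeq2, and 8 had an unadjusted p under 0.05. All 12 had log2 fold changes above 0, with a median of 0.44 and FPR2 (0.94) and SEC63 (0.83) at the top. HAC1 had a value of -0.58 (adjusted p = 0.0391).

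The remaining members were not called in dal80Δ. Their log2 fold changes were -0.73 for SSE2, -0.74 for SSA2, -0.61 for HSP26, -0.59 for HSP104, -0.54 for SSA1 and -0.34 for STI1. MDJ1 had -0.33, HSC82 -0.24, HSP60 and HSP10 each -0.23, SSQ1 -0.13 and MGE1 -0.07. FES1 had -0.07, APJ1 -0.06, YDJ1 -0.02, SSE1 0.00 and SSC1 0.04. Above these came HSP12 with 0.05, SSA3 with 0.12, CDC37 with 0.31, SSB1 with 0.35 and SSB2 with 0.72. APJ1 and SSC1, which were called in proline, thus had dal80Δ values near 0 with 95% intervals from -0.34 to 0.22 and from -0.42 to 0.49.

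These calls rest on 2 libraries a group. Without WT_Pro replicate 1, without dal80_Pro replicate 1 or without dal80_Pro replicate 2, every call of a member in dal80Δ was lost, in either direction. Each of these fits leaves 1 library in a group. The 6 members kept their direction in each of these fits, and the highest adjusted p over all fits that left out a library was 0.0178 for HSP78, 0.0351 for HSP42, 0.0429 for HSP31, 0.0323 for CUR1, 0.0238 for SIS1 and 0.0201 for LHS1.

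Ratios of 2 genes within a library need no scaling of libraries. Per nucleotide of ORF, HSP78 had 0.0352 and 0.0422 times the reads of SSC1 in glutamine, 0.830 and 0.566 times in wild-type proline and 0.164 and 0.156 times in dal80Δ. The ratio of HSP78 RNA to SSC1 RNA was thus highest in wild-type proline, and dal80Δ lay between the other groups. The proteins were not measured. HSP82 had 0.0722 and 0.134 times the reads of HSC82 in glutamine, 0.282 and 0.210 times in wild-type proline and 0.132 and 0.116 times in dal80Δ. SSA1 had 0.285 and 0.566 times the reads of SSA2 in glutamine and 0.840 to 1.21 times in the 4 proline libraries. SIS1 stood at 0.633 and 0.709 times YDJ1 in glutamine, 1.42 and 1.23 times in wild-type proline and 0.585 and 0.729 times in dal80Δ, so that it exceeded YDJ1 in wild-type proline and in no other group. SSB1 and SSB2 kept a ratio between 0.853 and 1.21, above 1 in the 4 wild-type libraries and below 1 in dal80Δ. KAR2 had 0.321 and 0.459 times the reads of SSA2 in glutamine, 0.234 and 0.218 in wild-type proline and 0.694 and 0.613 in dal80Δ.

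**Figure D3:**
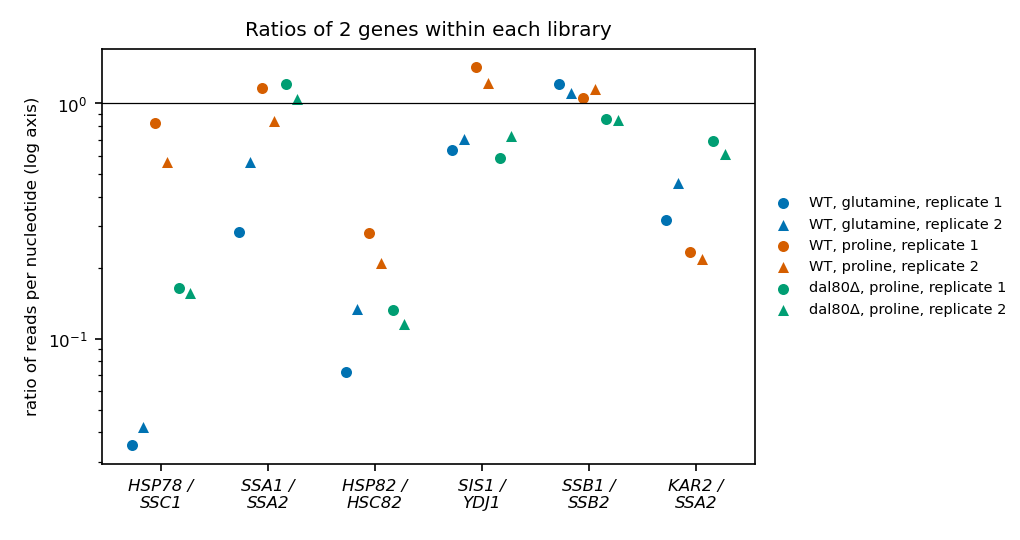
Ratio of the reads per nucleotide of 2 genes within each of the 6 libraries (log axis), for 6 pairs; the line marks equal density. HSP78 over SSC1 spans the widest range, from 0.0352 in glutamine to 0.830 in wild-type proline, and SSB1 over SSB2 the narrowest.

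All 37 members together took 2.07% and 2.31% of the reads on ORFs in glutamine, 1.83% and 1.63% in wild-type proline and 1.28% in each dal80Δ library. The mitochondrial members took 0.217% and 0.292% in glutamine, 0.206% and 0.190% in wild-type proline and 0.120% and 0.124% in dal80Δ. In both sums dal80Δ lay below the other groups, which was not the case for the ER members. Such shares amount to scaling by totals of reads on ORFs, under which the median of all ORFs tested was -0.21 in dal80Δ.

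Members with and without an HSE were then set side by side for dal80Δ. Of the 24 members with an HSE of 2 units, 23 had a log2 fold change below 0, with a median of -0.64, and KAR2 was the exception. Of the 13 without, 4 were below 0, with a median of 0.12, and HSP31 was called lower. The same was asked of genes that are not members. For the 1305 with an HSE of 2 units the median log2 fold change in dal80Δ was 0.06 and 44.8% were below 0, beside 0.05 and 45.1% for the 4284 without one. With 3 units, 13 of 14 members were below 0 (median -0.57), and 41 genes that are not members had a median of -0.01, with 51.2% below 0 beside 45.0% of the 5548 without one. In proline against glutamine, the members with an HSE of 2 units had a median of 0.21 and those without one of 0.02. The 11 members with a STRE had a median of 0.81, which is the value of HSP12. Without WT_Glu replicate 1, HSP12 was at -0.05. None of the 11 was called lower in proline, beside 15.6% of all ORFs tested. Of genes that are not members, 1253 with a STRE had a median of 0.09, with 182 called lower. The 4336 without one had a median of 0.02, with 686 called lower. Among the members called lower in proline, the windows of SSB1, SSB2, SSC1, JEM1 and SCJ1 held none of the motifs HSE, STRE or UPRE core. Most windows lack each of them: 23.5% of all windows held an HSE of 2 units, 22.3% a STRE and 1.39% a UPRE core. The share of all windows without any of these motifs was not counted, so this is not a trait particular to these genes. The deposited transcript of SSA3 starts 1383 bases before its ORF, so its window lies far from the ORF.

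**Figure D4:**
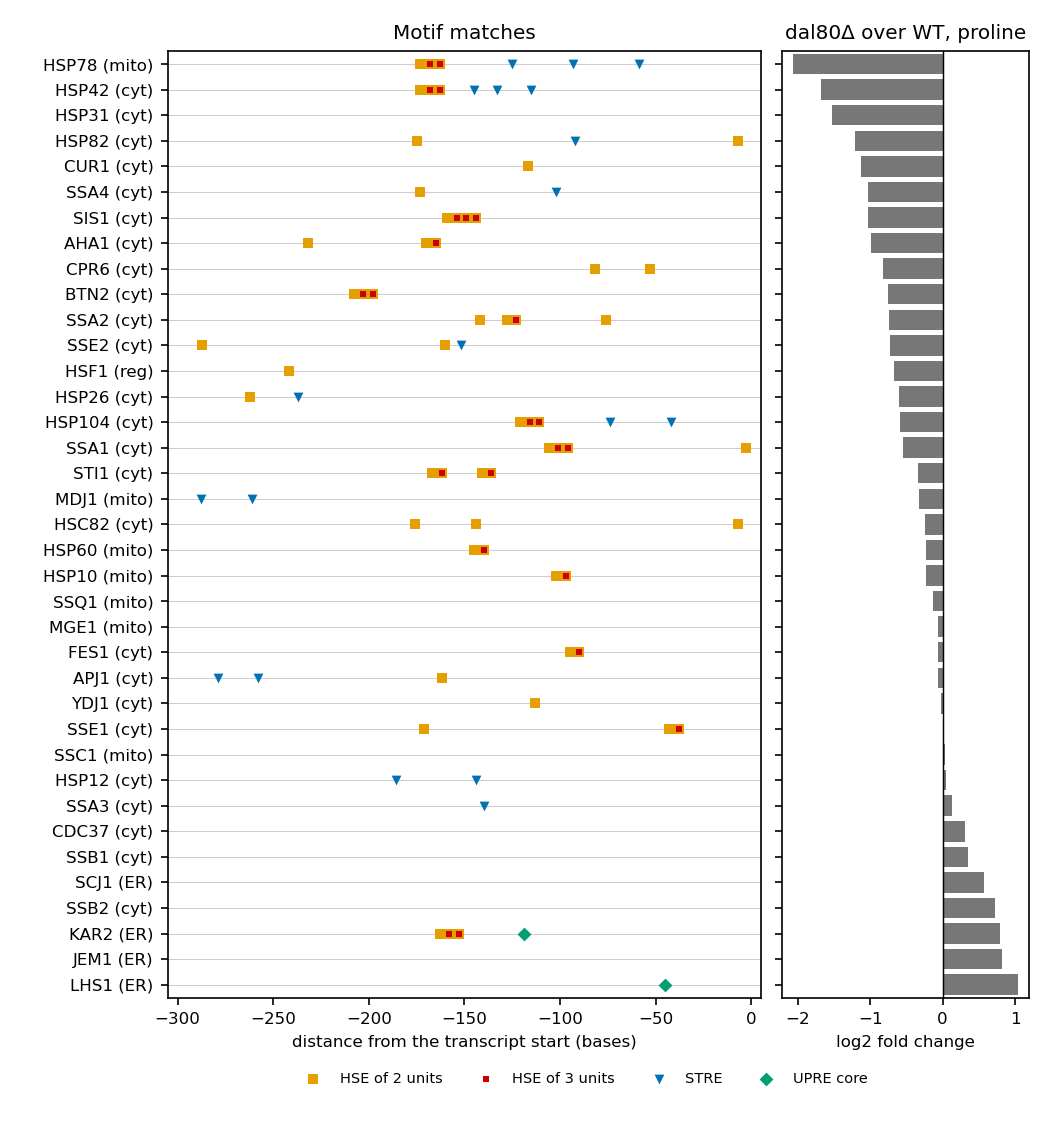
Positions of HSE, STRE and UPRE core matches in the 300 bases before the transcript start of each member (left; cyt, cytosol and nucleus; mito, mitochondrion; reg, regulator) and the log2 fold change in dal80Δ over wild type in proline (right), sorted by it. The 24 members with an HSE of 2 units fill most of the upper rows, and KAR2 is the one among them with a value above 0.

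General stress genes were a further list. Of 12 targets of Msn2 and Msn4, the repressor gene XBP1 was called, higher in proline (1.46) and lower in dal80Δ (-1.02), and the medians were 0.45 and -0.40, with 10 of 12 below 0 in dal80Δ. In 8 of the 12, WT_Glu replicate 2 was at least 2-fold above WT_Glu replicate 1, and the median in proline was -0.53 without WT_Glu replicate 1 and 1.38 without WT_Glu replicate 2. The genes of Msn2, Msn4 and the oxidative stress factor Yap1 were called in neither comparison by limma, edgeR or DESeq2, with 3 and 1 of them at an unadjusted p under 0.05.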

How the data were processed

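Stranded libraries of total RNA depleted of rRNA were analysed, 6 in number, in 3 groups of 2. The authors mapped reads with TopHat to build R64 and counted uniquely mapped reads per feature. The deposited values of the first glutamine library are counts. For the other 5 libraries the authors deposited a signal, reads multiplied by 1 factor per library, and dividing by the factor gave whole reads for 100% of values (tolerance 1e-06). The deposited densities are this signal divided by the length of the feature. For WT_Pro replicate 1 the deposited factor was 0.686, that estimated by DESeq2 0.686 and that from totals of reads on ORFs 1.32. DESeq2 on the recovered reads is therefore no separate check of the scaling. 6 columns of authors' means were not used, nor were 4 ORFs of the 2-micron plasmid. 5754 of 5786 ORFs, and all 37 members, have the same coordinates in the R64 annotation, from which the sequences were read.

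ORFs were filtered with filterByExpr (5645 kept) and log2(scaled reads + 1) was fitted with limma 3.58.1 (R 4.3.3; trend, 1 term per group, 3 residual and 4.54 prior degrees of freedom), with Benjamini-Hochberg adjustment over all ORFs tested. A gene was called at a 2-fold change with an adjusted p of 0.01 or less. The fit was also run on simulated data, in which all genes had the same dispersion. The gap between the glutamine libraries was not simulated, so that run says nothing about it. Alternatives were TMM factors, totals of reads on ORFs, edgeR 4.0.16 and DESeq2 1.42.0 on the recovered reads, no filter, a pseudocount of 8, 2 groups only, whole transcripts, the replicate number as a block and leaving out each library. Depth was 12304015 to 19968312 reads on ORFs, counting error being largest for low genes.

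The members, lists and motifs were chosen with earlier results of these data known. All members are named, with values per library for those called in either comparison, HSF1, close paralogs and the densest member of each compartment, and values per library were added for HSP26 and HSP104 after they had been seen. Of the other lists, up to 4 called genes per comparison are named, and uncalled genes named beside them were chosen after their values were seen.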

Additional observations from a re-analysis of the deposited data

How the results depend on the processing

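With totals of ORF reads, 17 members were higher and 6 lower in proline, and 0 were higher and 9 lower in dal80Δ. With TMM factors or edgeR, 0 were higher in dal80Δ. On the recovered whole reads, edgeR called 1673 ORFs in proline and 470 in dal80Δ, beside 1611 and 453 with limma. Leaving out each library gave 3 to 8 members higher and 9 to 11 lower in proline, and 0 to 1 higher and 0 to 7 lower in dal80Δ. The other settings kept each of these 4 counts within 1.5 times.

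No member called in a comparison changed sign there under any alternative run. Signs changed for members not called. With totals, proline values became 0.69 (SSA1), 0.029 (SSE1), 0.63 (YDJ1), 0.92 (HSP82), 0.55 (CPR6) and 0.073 (HSP10), and dal80Δ values -0.21 (HSP12), -0.14 (SSA3) and -0.22 (SSC1). HSP82 in proline was 0.12 with TMM and 0.068 with edgeR, SSC1 in dal80Δ was -0.010 with TMM and -0.011 with edgeR, and SSA3 over whole transcripts was -0.037. Leaving out a library gave these ranges in proline: HSP12 -0.054 to 1.67, HSP26 -0.60 to 1.91, SSA1 -0.81 to 0.36, SSA4 -0.13 to 1.81, SSE2 -0.35 to 0.49, HSP82 -0.47 to 0.47, STI1 -0.060 to 0.32, CDC37 -0.032 to 0.068 and MGE1 -0.063 to 0.20. The cytosolic median ranged from -0.054 to 0.49 and the mitochondrial median from -0.063 to 0.20. In dal80Δ the ranges were HSP12 -0.20 to 0.30, HSP26 -1.27 to 0.052, SSE1 -0.055 to 0.052, YDJ1 -0.14 to 0.11, SSC1 -0.065 to 0.14 and MGE1 -0.18 to 0.040. The cause was not tested.

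Deviations from the group means of libraries with the same replicate number correlated at -0.2376 (glutamine and proline), 0.0343 (proline and dal80Δ) and 0.182 (glutamine and dal80Δ); pairing is not stated and not every correlation was above 0, so the numbers were not taken as pairs. With the replicate block, 4 members were higher and 10 lower in proline, and 1 higher and 4 lower in dal80Δ, where HSP31 was lost. A crossed block, added after seeing the data, gave 4, 10, 1 and 5. With 2 libraries a group, and 42.1% of the 50-base stretches of SSA1 unique, small changes of low or duplicated genes may have been missed.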
